A study of Penicillium oxalicum with 6 samples.

Results

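The genes described here are 36 consecutive gene IDs of the filamentous fungus Penicillium oxalicum, POX05843 to POX05878, out of 9834 IDs measured. At their centre is a block of 22 IDs, POX05850 to POX05871, and on each side stand 7 flanking IDs. The block was chosen by its measured values: it is the longest unbroken series of ID numbers that were all at least 2-fold lower, past an adjusted p of 0.05, in the Avicel-labelled libraries than in the wheat-bran-labelled ones. The levels of the block genes in this contrast are therefore given as a description with no test. The flanks were taken by ID number alone, except that POX05849 and POX05872 had to fail the same rule.

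RNA sequencing of mycelium gave 6 libraries in 2 groups of 3. Per the sample labels, one group grew in medium with 1% Avicel, a purified microcrystalline cellulose, and the other in medium with 1% wheat bran, a plant residue that holds hemicelluloses and starch beside cellulose. Both groups carry the strain name MuKu70 and a time of 4 hours after transfer of hyphae. Ku70 is a protein of DNA end joining, and fungal strains without it are widely used as parents for gene deletion. The title of the series names a deletion mutant of POX07277 and 24 hours on Avicel instead, so the groups are named by their labels throughout. POX07277 had 427, 375 and 331 expected counts in Avicel-labelled replicates F, S and T, and 0 in each of the 3 wheat-bran-labelled libraries. Such a 0 allows an expected count of up to about 3 (one-sided 95% Poisson limit). The labels name no such mutant. Names of the deposited data, in both groups, hold the number of POX07277 and the hours of the title. In these names the number follows a letter K in 3 libraries and a letter P in 3, which the sample labels do not explain. Strain and medium cannot be told apart as the source of any difference between the groups. Whether the replicates of a group are separate cultures is not stated by the labels, and the spread behind each p-value may therefore be technical. Libraries held 13176152 to 14598919 expected counts, and 8636 genes passed the filter on low counts, among them 35 of the 36 members. Values per library are given in the order of replicates F, S and T.

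In filamentous fungi, genes that act in one pathway often sit side by side in the genome. The best known cases are the clusters for secondary metabolites, in which a large synthase gene lies beside genes for tailoring enzymes, transporters and often a transcription factor, and the genes of a cluster are commonly transcribed together. Some pathways for the use of nutrients are clustered in the same way. The files give these 36 IDs no names or products, and the numbers were not paired with genome positions, so no role is assigned to any member here.

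As a whole, the block held few reads in the Avicel-labelled libraries and many in the wheat-bran-labelled ones. In CPM (expected counts per 1000000 after TMM scaling of the libraries), the 22 genes summed to 255.8, 317 and 149 in Avicel-labelled replicates F, S and T, against 5650.4, 4297 and 4529 in wheat-bran-labelled replicates F, S and T. The groups were far apart, with a mean of 241 ± 85.1 CPM under the Avicel label and 4825 ± 724 CPM under the wheat bran label (SD, n = 3 each), a 20.1-fold ratio. As log2, the ratio was -4.33, and -4.07 without replicate T labelled Avicel, the library with the lowest sum. Block genes took 0.0239% ± 0.0082 of all counts in the Avicel-labelled libraries and 0.484% ± 0.0770 in the wheat-bran-labelled ones (SD, n = 3 each). The 14 flanking genes together stood at 436 ± 6.98 CPM under the Avicel label and 588 ± 11.0 CPM under the wheat bran label (SD, n = 3 each). In bulk RNA, fewer hyphae that express these genes and less RNA in each cannot be told apart.

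**Figure D1:**
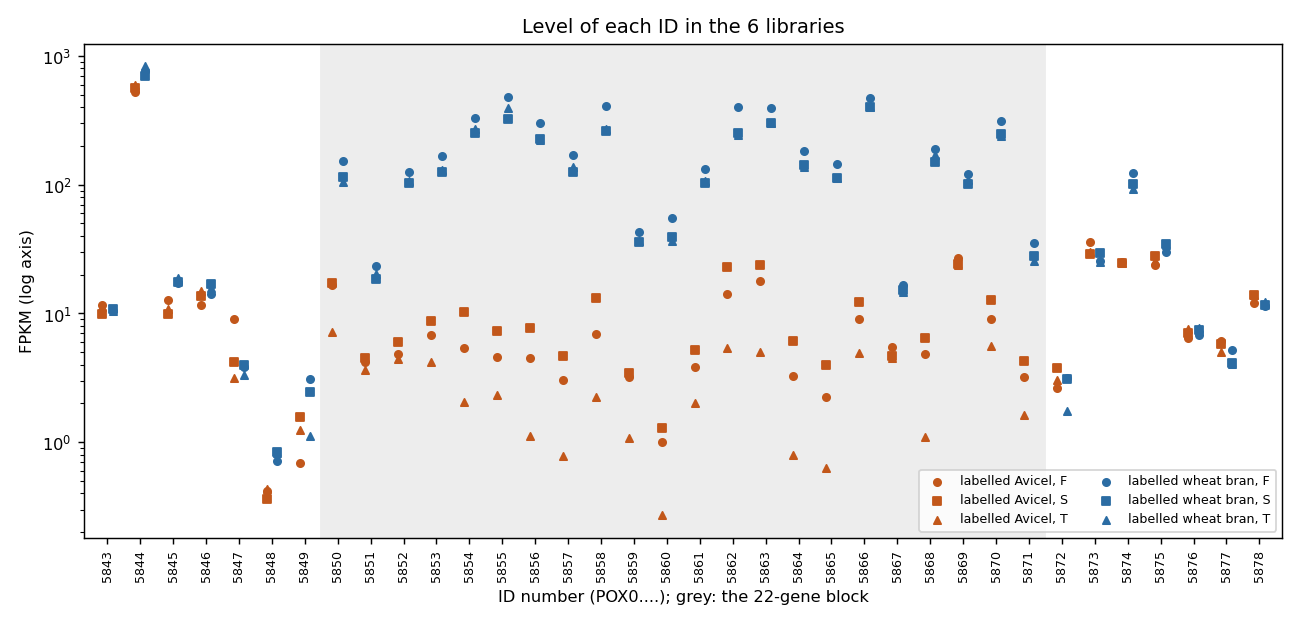
FPKM of each of the 36 IDs (log axis) in the 6 libraries, the 3 labelled Avicel (orange) left of the 3 labelled wheat bran (blue) at each ID number; the grey band marks the 22-gene block. In the block the groups lie apart at every ID, and the triangle of replicate T is the lowest of the Avicel points, while in the flanks most points of both groups lie close together.

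FPKM, the authors' level scaled to gene length and library size, allows genes to be set beside each other. In the Avicel-labelled libraries, 18 of the 22 block genes averaged under 10 FPKM, and the median block gene stood at 4.81 FPKM, below the median of 28.1 FPKM over all genes tested. In the wheat-bran-labelled libraries, 17 of the 22 averaged at least 100 FPKM, a level that 18.1% of all genes tested reached there. The median block gene stood at 143 FPKM in that group and the median of all genes tested at 28.7 FPKM. The highest mean of a block gene was 25.1 FPKM under the Avicel label and 423 FPKM under the wheat bran label.

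On the low-number side, 3 of the 6 tested flanking genes were lower under the Avicel label, none of them by 2-fold or more, and the last 2 IDs before the block were almost unread. POX05843 had 11.6, 9.96 and 11.2 FPKM in the Avicel-labelled libraries, against 10.4, 10.8 and 10.5 FPKM in the wheat-bran-labelled ones. For POX05846 the levels were 11.6, 13.6 and 15.1 FPKM under the Avicel label and 14.2, 16.8 and 15.9 FPKM under the wheat bran label. Neither gene passed the test, and in both the groups overlapped, although POX05846 passed with the length trend of each library removed (log2 fold change -0.45, edgeR adjusted p = 0.0115). POX05844 had 525, 567 and 590.2 FPKM in the Avicel-labelled libraries, against 759, 694 and 829.9 FPKM in the wheat-bran-labelled ones. This is the most abundant of the 36 per unit length and the shortest, with a length of 177 bases implied by its counts and FPKM, and its groups did not overlap (log2 fold change -0.44, SE 0.09, edgeR quasi-likelihood adjusted p = 0.00534). Its call was lost with the length trend removed, where the log2 fold change was -0.13 (edgeR adjusted p = 0.313). POX05845 stood at 12.7, 9.91 and 10.9 FPKM (labelled Avicel) and at 17.2, 17.4 and 18.8 FPKM (labelled wheat bran), lower in every Avicel-labelled library than in any other (log2 fold change -0.68, SE 0.12, edgeR quasi-likelihood adjusted p = 0.00248). For POX05847 the levels were 9.0, 4.23 and 3.14 FPKM under the Avicel label and 3.82, 3.96 and 3.33 FPKM under the wheat bran label. Replicate F labelled Avicel stood above the other 5 libraries, the groups overlapped, and the gene did not pass the test (log2 fold change 0.56, edgeR adjusted p = 0.229). Without that replicate the log2 fold change was -0.0071. POX05848 had 7, 6 and 7 expected counts in the Avicel-labelled libraries and 11, 13 and 13 in the wheat-bran-labelled ones. At this depth its difference passed the test narrowly (log2 fold change -0.98, SE 0.29, edgeR quasi-likelihood adjusted p = 0.0243), and the call was lost in 7 of 16 alternatives, among them without replicate S or T of either group. POX05849, the ID next to the block, had 4, 9 and 7 counts under the Avicel label and 16, 13 and 6 under the wheat bran label. It was the 1 member removed by the filter on low counts, and its groups overlapped.

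In level, the block opened abruptly after these nearly unread IDs, whose few counts leave the step in ratio uncertain. POX05850 had 16.5, 17.3 and 7.12 FPKM in the Avicel-labelled libraries, against 152, 115 and 105 FPKM in the wheat-bran-labelled ones. For POX05851 the levels were 4.16, 4.5 and 3.66 FPKM under the Avicel label and 23.2, 18.6 and 20.4 FPKM under the wheat bran label. POX05851 has the longest implied length of the 36 members, 7756 bases. Its mean under the Avicel label was 19.8% of its mean under the wheat bran label, the share called the level kept from here on. The word sets no baseline: a loss in either group and a gain in the other cannot be told apart. Avicel and wheat bran levels or values below are those of the labels. The replicates of POX05851 lay within 1.25-fold of each other in both groups. POX05852 stood at 4.87, 5.99 and 4.45 FPKM (labelled Avicel) and at 126, 103 and 106 FPKM (labelled wheat bran). POX05853 had 6.82, 8.67 and 4.23 FPKM in the Avicel-labelled libraries, against 166, 125 and 131 FPKM in the wheat-bran-labelled ones. Both kept under 5% of the level seen under the wheat bran label, 4.58% and 4.67%.

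The next 5 IDs, POX05854 to POX05858, each kept under 3% of their wheat bran level. POX05854 had 5.43, 10.2 and 2.06 FPKM in the Avicel-labelled libraries, against 328, 254 and 270.3 FPKM in the wheat-bran-labelled ones. For POX05855 the levels were 4.55, 7.31 and 2.32 FPKM under the Avicel label and 477, 326 and 393 FPKM under the wheat bran label. POX05855 kept 1.19%, the least of all block genes, an 84.4-fold ratio of mean FPKM. POX05856 stood at 4.47, 7.77 and 1.12 FPKM (labelled Avicel) and at 299.6, 227 and 224 FPKM (labelled wheat bran). POX05857 had 3.05, 4.69 and 0.78 FPKM in the Avicel-labelled libraries, against 171, 127 and 138 FPKM in the wheat-bran-labelled ones. For POX05858 the levels were 6.89, 13.1 and 2.23 FPKM under the Avicel label and 411, 263 and 272 FPKM under the wheat bran label. In each of these 5 genes replicate T labelled Avicel was lowest and replicate S highest of that group, and the highest Avicel value among them, 13.1 FPKM, lay far below the lowest wheat bran value, 127 FPKM.

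A pair of less abundant genes followed. POX05859 stood at 3.22, 3.46 and 1.08 FPKM (labelled Avicel) and at 43.1, 36.2 and 36.5 FPKM (labelled wheat bran). POX05860 had 1.0, 1.28 and 0.27 FPKM in the Avicel-labelled libraries, against 55.4, 39.5 and 36.8 FPKM in the wheat-bran-labelled ones. POX05860 is the least abundant block gene under the Avicel label, with 15, 19 and 4 expected counts, so its level in replicate T rests on few reads. For POX05861 the levels were 3.84, 5.16 and 2.0 FPKM under the Avicel label and 131, 103 and 107 FPKM under the wheat bran label. It kept 3.23% of its wheat bran level.

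Levels were again high from POX05862 to POX05866. POX05862 had 14.2, 22.9 and 5.38 FPKM in the Avicel-labelled libraries, against 399.6, 252 and 245 FPKM in the wheat-bran-labelled ones. POX05863 stood at 17.8, 23.7 and 4.99 FPKM (labelled Avicel) and at 398, 302 and 302 FPKM (labelled wheat bran). These 2 genes had the highest Avicel means of the 5, and their highest and lowest Avicel replicates, S and T, differed by 4.25-fold and 4.74-fold. For POX05864 the levels were 3.28, 6.13 and 0.80 FPKM under the Avicel label and 181, 141 and 138 FPKM under the wheat bran label. POX05865 had 2.25, 3.96 and 0.63 FPKM in the Avicel-labelled libraries, against 145, 113 and 114 FPKM in the wheat-bran-labelled ones. POX05866 stood at 9.13, 12.3 and 4.94 FPKM (labelled Avicel) and at 468, 399 and 401 FPKM (labelled wheat bran). POX05866 had the highest mean of the block under the wheat bran label and kept 2.08% of it in the Avicel-labelled libraries.

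Towards the high-number end, steeply and mildly lower genes alternated. POX05867 had 5.44, 4.67 and 4.54 FPKM in the Avicel-labelled libraries, against 16.5, 15.3 and 14.8 FPKM in the wheat-bran-labelled ones. This was the mildest difference in the block: the gene kept 31.4%, and its Avicel replicates differed by only 1.2-fold from highest to lowest. For POX05868 the levels were 4.82, 6.45 and 1.09 FPKM under the Avicel label and 188, 151 and 169 FPKM under the wheat bran label. POX05869 stood at 27.2, 24.1 and 23.99 FPKM (labelled Avicel) and at 121, 102 and 108 FPKM (labelled wheat bran). POX05869 was the most abundant block gene in all 3 libraries labelled Avicel and kept 22.8% of its wheat bran level. POX05870 had 9.03, 12.7 and 5.55 FPKM in the Avicel-labelled libraries, against 314, 247 and 239.8 FPKM in the wheat-bran-labelled ones. For POX05871 the levels were 3.19, 4.27 and 1.64 FPKM under the Avicel label and 35.6, 27.9 and 25.7 FPKM under the wheat bran label. The last gene of the block kept 10.2%, close to the 10.99% of the first.

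Past the block, levels returned at once to little difference between the groups. POX05872 stood at 2.63, 3.77 and 3.02 FPKM (labelled Avicel) and at 3.15, 3.09 and 1.75 FPKM (labelled wheat bran). POX05873 had 36.2, 28.9 and 29.9 FPKM in the Avicel-labelled libraries, against 25.5, 29.5 and 25.3 FPKM in the wheat-bran-labelled ones. In both genes the groups overlapped and the test was not passed (edgeR adjusted p = 0.483 and 0.118). POX05874, the third ID past the edge, was an exception. For POX05874 the levels were 24.96, 24.5 and 24.5 FPKM under the Avicel label and 123, 100.4 and 92.7 FPKM under the wheat bran label. All 3 Avicel values lay below every wheat bran value, and the difference passed the test (log2 fold change -2.09, SE 0.11, edgeR quasi-likelihood adjusted p = 5.56e-06) and was called in all 17 alternatives. Its levels in both groups were near those of POX05869 inside the block, whose log2 fold change was -2.13. POX05875 had 23.7, 27.7 and 25.6 FPKM in the Avicel-labelled libraries, against 29.97, 34.8 and 33.7 FPKM in the wheat-bran-labelled ones. This smaller difference also passed (log2 fold change -0.35, SE 0.10, edgeR quasi-likelihood adjusted p = 0.0148), but not without replicate S or without replicate T labelled wheat bran (edgeR adjusted p = 0.0615 and 0.0565). The last 3 IDs did not pass. POX05876 stood at 6.44, 7.0 and 7.56 FPKM (labelled Avicel) and at 6.75, 7.5 and 7.72 FPKM (labelled wheat bran). For POX05877 the levels were 6.08, 5.81 and 5.06 FPKM under the Avicel label and 5.17, 4.11 and 4.02 FPKM under the wheat bran label. POX05877 missed the threshold narrowly (edgeR adjusted p = 0.0534) and passed in 4 of 17 alternatives. POX05878 had 12.03, 13.97 and 13.8 FPKM in the Avicel-labelled libraries, against 11.4, 11.6 and 12.2 FPKM in the wheat-bran-labelled ones. It passed only in the fit without replicate F labelled Avicel (log2 fold change 0.24, edgeR adjusted p = 0.0261), and its sign turned with the length trend removed.

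Of the 14 flanking genes, 13 were tested and 5 passed, all lower in the Avicel-labelled libraries, where 55% of all 8636 genes tested passed in either direction. POX05874 was the 1 flanking gene at least 2-fold lower and past the threshold, a rule met by 9.41% of all genes tested and, by selection, by all 22 block genes. FPKM values of the groups did not overlap for 5 of the 14 flanking genes, against 63.8% of all genes tested. They did not overlap for any of the 22 block genes either, which follows largely from how the block was chosen. The number of flanking genes that passed moved between 3 and 6 over the alternatives, and POX05872 had to fail the rule, so nothing is read from their share. The median log2 fold change of the tested flanking genes was -0.07, beside 0.0086 over all genes tested and -4.91 in the block.

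**Figure D2:**
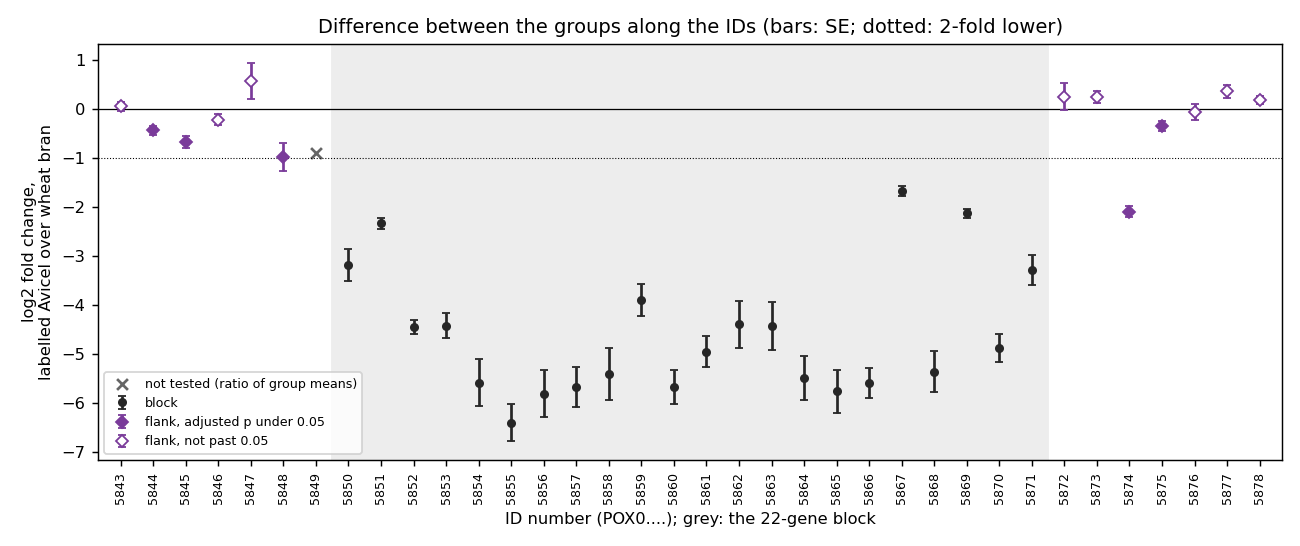
Log2 fold change (labelled Avicel over labelled wheat bran) of each ID with its SE; black points are block genes, diamonds are flanking genes (filled where past an adjusted p of 0.05), the cross is POX05849, which was not tested, and the dotted line marks 2-fold lower. The block runs from -1.67 to -6.39, with POX05851, POX05867 and POX05869 highest, and POX05874 at -2.09 is the 1 flanking gene far below 0.

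At each edge the rule required the ID just outside to fail it, but did not set the size of the step. In the fit used here POX05849 was not tested, so it could not pass. Just inside the low-number edge POX05850 had a log2 fold change of -3.18 (SE 0.32), and just outside it POX05849 had a log2 ratio of group means of -0.91 on very few counts, a step of -2.27. Just inside the high-number edge POX05871 had -3.29 (SE 0.31) and just outside it POX05872 had 0.24 (SE 0.27), a step of -3.53. Within the block, 16 of the 22 genes had a log2 fold change under -4, and the 3 genes above -2.5 were POX05851 at -2.34, POX05867 at -1.67 and POX05869 at -2.13 (SE 0.12, 0.10 and 0.10). Both end genes were milder than most of the interior. At a stricter 4-fold the unbroken series shortened to 17 IDs, ending before POX05867. Across the 22 genes, which are not independent, the size of the log2 fold change had a Spearman correlation of -0.64 with implied length: the long genes POX05851, POX05867 and POX05871 were among the milder ones. The median implied length was 1241 bases in the block, 1249 in the flanks and 1264 over all genes tested.

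The order of the genes by level was not the same in the groups. Across the 22 genes, FPKM means of the Avicel-labelled libraries and the wheat-bran-labelled ones had a Spearman correlation of 0.47, while pairs of libraries within a group had 0.75 to 0.92 under the Avicel label and 0.98 to 0.99 under the wheat bran label. The mild genes POX05851, POX05867 and POX05869, chosen after their values were seen, made up 22.8%, 15.8% and 37.9% of the summed FPKM of the block in Avicel-labelled replicates F, S and T. Under the wheat bran label they made up 3.45%, 3.89% and 3.98%. Replicate T labelled Avicel, which had the lowest block level, had the largest share of these 3 genes. Summed over the 3 genes, levels were 89.5, 85.6 and 76.6 CPM in Avicel-labelled replicates F, S and T and 402, 337 and 367 CPM in the wheat-bran-labelled ones. The other 19 genes summed to 166, 231 and 72.3 CPM under the Avicel label and to 5248, 3959 and 4163 CPM under the wheat bran label. The sum of the 19 genes thus varied 3.20-fold between the Avicel-labelled libraries, and that of the 3 mild genes 1.17-fold. Not every steep gene was variable: POX05852, among the 19, varied 1.35-fold in FPKM. Across the 22 genes, the Spearman correlation of the size of the log2 fold change with the Avicel SD of log2(CPM + 1) was 0.45. Both measures use the same Avicel-labelled counts, and the added 1 narrows the SD of genes with few reads, so nothing is read from this value.

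**Figure D3:**
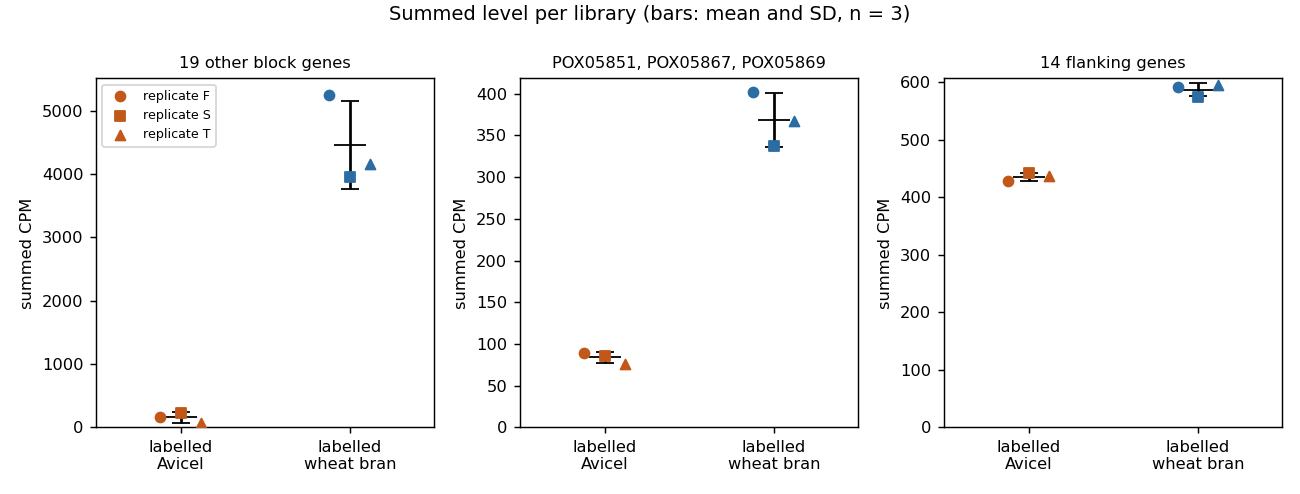
Summed CPM per library (linear axes from 0; symbols mark the replicate, bars the mean and SD of n = 3) of the 19 other block genes, the 3 mild genes and the 14 flanking genes, with the Avicel-labelled libraries on the left of each panel and the wheat-bran-labelled ones on the right. The 19 genes are at 72.3 to 231 CPM under the Avicel label and at 3959 to 5248 CPM under the wheat bran label, while the flanks differ far less.

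Block genes also moved together between libraries of the same group, a measure that the choice of the block did not use directly. All 22 block genes were lowest in replicate T among the Avicel-labelled libraries, and 20 were highest in replicate S; over all genes tested, 33.0% were lowest in replicate T and 27.8% highest in replicate S. All 22 were highest in replicate F among the wheat-bran-labelled libraries, where 37.6% of all genes tested were. Of the flanking genes, 3 of 14 were lowest in replicate T labelled Avicel and 4 of 14 highest in replicate F labelled wheat bran. As deviations from the group mean of log2(CPM + 1), the median block gene stood at 0.16, 0.55 and -0.77 in Avicel-labelled replicates F, S and T, and at 0.23, -0.14 and -0.06 in the wheat-bran-labelled ones. Outside the 36 IDs, the 790 genes that were called at least 2-fold lower in the Avicel-labelled libraries had median deviations of 0.00, 0.03 and -0.02 in Avicel-labelled replicates F, S and T, and the median over all genes tested was between -0.01 and 0.02 there. In wheat-bran-labelled replicates F, S and T the 790 genes had median deviations of 0.08, -0.06 and -0.02, smaller than those of the block and with the same signs, and the median over all genes tested was 0.00 in each. The low level of the block in replicate T labelled Avicel had no counterpart of like size in the median of the 790 genes, while the high level in replicate F labelled wheat bran had a smaller one.

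Counting error was set beside this spread for replicates S and T labelled Avicel, and its part in the spread was not tested. POX05854 had 6.69, 12.7 and 2.49 CPM in Avicel-labelled replicates F, S and T, with exact 95% Poisson intervals of 10.9 to 14.7 CPM in S and 1.74 to 3.44 CPM in T. For 19 of the 22 genes the intervals of replicates S and T did not overlap. Replicates S and T were picked after their values were seen, and the share over all genes tested was not computed, so nothing is read from this count. These intervals cover counting error only. The SD of log2(CPM + 1) between the Avicel-labelled libraries had a median of 0.69 over the block, beside 0.13 over the flanks and 0.13 over all genes tested. Between the wheat-bran-labelled libraries it was 0.20, beside 0.12 and 0.11.

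**Figure D4:**
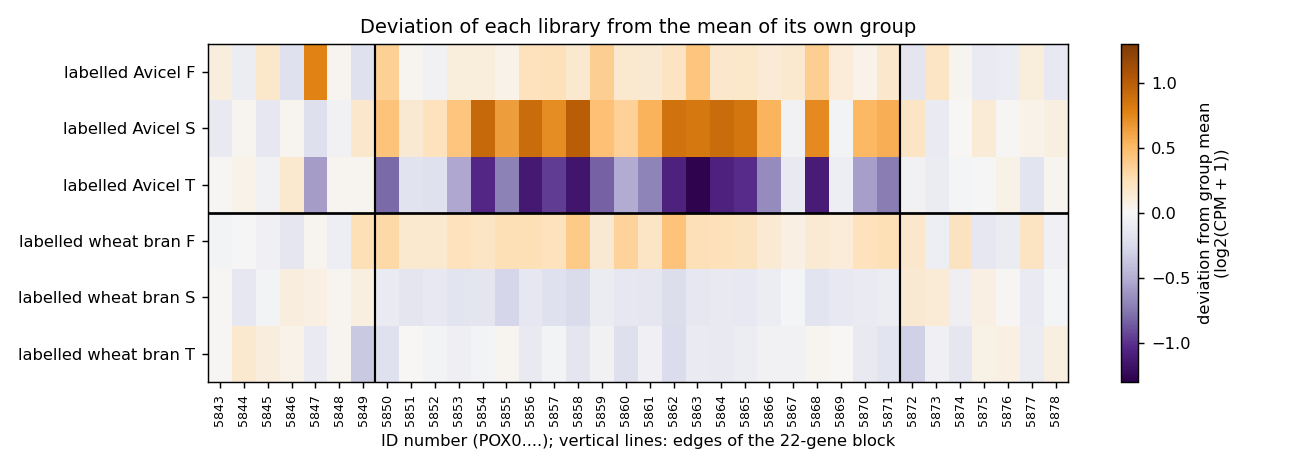
Deviation of each library from the mean of its own group in log2(CPM + 1), for each of the 36 IDs (columns) and 6 libraries (rows, labelled Avicel above labelled wheat bran); orange is above and purple below the group mean, and vertical lines mark the edges of the block. Replicate T labelled Avicel is purple and replicate F labelled wheat bran orange along the block, and in the flanks POX05847, at 0.78 in replicate F labelled Avicel, is the ID with the strongest deviation.

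Pairs of block genes had a mean Pearson r of 0.87 and a median of 0.96 between their deviations over the 6 libraries (231 pairs, from 0.26 to 1.00). These values are a description: 4 degrees of freedom are left after the group means, and all pairs share the same 6 libraries. All 231 were above 0, and 158 (68.4%) were above 0.9. Of the 7793 pairs of consecutive tested IDs in the series, 4383 were above 0 and 5.47% above 0.9. Of the 91 pairs within the flanks, 37 were above 0 and 2.2% above 0.9. Consecutive IDs in the block had a median r of 0.97 (21 pairs), against 0.12 over the 7793 pairs of consecutive tested IDs in the series. Pairs within the flanks had a median of -0.17 (91 pairs), and pairs of a block gene with a flanking gene -0.02 (308 pairs). The mild genes POX05867 and POX05869 followed the rest least, with a mean r of 0.51 and 0.47 with the other block genes, where the other 20 genes had 0.82 to 0.93. POX05851 was mild in fold but had a mean r of 0.83. In the flanks, POX05877 had the highest r with the mean of the block, 0.75, and POX05874, which shared the direction of the block, had 0.37. Outside the 36 IDs, 128 of 8601 tested genes (1.49%) had an r above 0.9 with the mean of the block, and the median was 0.02.

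The mean r between block genes was 0.88 over the Avicel-labelled libraries alone and 0.94 over the wheat-bran-labelled ones alone. Each group leaves 2 degrees of freedom, and the same values over other genes were not computed. Over both groups together, r leans on the Avicel-labelled libraries, where the spread of the block was larger. Without replicate T labelled Avicel the mean r was 0.74, the lowest value with a library left out.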

How the data were processed

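The deposited table of each library holds an expected count per gene (an estimate of reads or fragments that is not normalized) and FPKM, which the authors scaled to gene length and library, per the file headers. TPM, deposited for 1 library, was not used. RSEM 1.2.12, Bowtie2 2.1.0, BWA 0.7.10-r789 and DESeq2 are listed, without their roles, per the submitters' processing notes. Which genome build, annotation and strand setting served is not given in the sources used here, so reads of overlapping or antisense genes may be mixed. All 216 counts of the members were whole (tolerance 1e-06).

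After rounding, expected counts went into the two-sided quasi-likelihood test of edgeR 4.0.16 (R 4.3.3; TMM, filterByExpr; group as the 1 term; Benjamini-Hochberg adjustment over 8636 genes; threshold 0.05). SEs were derived from the F statistic. POX05849 was removed by the filter, so its ratio is one of group mean CPM. Implied length is an effective length from count and FPKM. Alternatives were DESeq2 1.42.0, limma 3.58.1 on log2(FPKM + pseudocount), other scalings and filters, removal of the length trend, the replicate letter as a block and leaving out each library. Poisson intervals used scipy 1.17.1. All 36 IDs were named. Members and lists were chosen with earlier results of these data known. None of the 36 IDs matched the RefSeq table of assembly ASM172317v3 (0 of 36), so no names, positions or sequences were used, and no gene list was tested.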

Additional observations from a re-analysis of the deposited data

How the results depend on the processing

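The unbroken series of lower IDs held 22 IDs in the 17 alternative fits and 17 IDs at 4-fold; these refits use the libraries that chose the block, so they describe its extent and do not support it. The median log2 fold change of the block was -4.11 and the step at the high-number edge -2.21 with limma on log2(FPKM + 5), a pseudocount that pulls low levels together. The number of flanking genes called was 3 at an adjusted p under 0.01, and between 3 and 6 when a library was left out, lowest without replicate S or T labelled wheat bran. No step at the low-number edge was computed under quantile normalization, which was made over the tested genes alone; in the other fits without POX05849, a ratio of group means (for limma, a difference of mean log2 levels) took its place. Genes not past the threshold changed sign in some fits: POX05843 was at -0.21 and POX05878 at -0.19 with the length trend removed, where POX05876 was at 0.10. POX05876 was at 0.011 under quantile normalization. Without replicate F labelled Avicel, POX05843 was at -0.0018 and POX05847 at -0.0071. With the letter as a replicate block, 6 flanking genes and 4602 genes in all were called; libraries with the same letter had correlations of their deviations of 0.19 (F), -0.10 (S) and 0.23 (T), so the letters were not taken as pairs, and replicate S labelled Avicel correlated best with replicate T labelled wheat bran. The log2 ratio of the summed block level was -4.33, and -4.68 for summed FPKM. The mean r between block genes was 0.85 to 0.87 under other scales and pseudocounts. Depth limits POX05848, POX05849 and POX05860, which had 4 to 19 counts in the Avicel-labelled libraries. In replicate T labelled Avicel it also limits POX05856, POX05857, POX05864, POX05865 and POX05868, with 15, 11, 11, 14 and 15 counts.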
